A study of Mus musculus with 15 samples.

Results

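Arginine feeds a short set of enzymes that compete for it or pass it on to the polyamines, and 10 mouse genes of these steps were followed here by their symbols: Arg1, Arg2, Ass1, Asl, Nos2, Odc1, Azin1, Srm, Sms and Sat1. The genes were chosen by name. Of these 10, 8 had a row in all 3 deposited count tables, which together hold 12897 genes. Arg2 and Nos2 have no row and were not analysed here. The tables pair counts with gene symbols and give no positions.

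Arginase splits arginine into urea and ornithine, nitric oxide synthase turns the same arginine into nitric oxide and citrulline, and argininosuccinate synthase and lyase rebuild arginine from citrulline. Ornithine is the entry to putrescine, spermidine and spermine, small positively charged molecules that growing cells need and that intestinal epithelium makes and takes up. Arginase 1 is known as a marker of alternatively activated macrophages and is also made by keratinocytes.

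The study asked how loss of the transcription factor Irf1 alters the colon before and after a protocol that leads to colitis-associated cancer. Distal colon RNA was sequenced from C57BL/6 mice (B6, given as C57BL/6J in the methods) and from Irf1-/- mice on the same strain. Each of the 5 groups held 3 mice. Untreated B6 mice formed control set 1 and control set 2, and untreated Irf1-/- mice the third group. Treated B6 and treated Irf1-/- mice, 8 to 10 weeks old at the start, received azoxymethane (AOM, a colon carcinogen) at 7 mg/kg on day 1 and 2% dextran sulfate sodium (DSS, which injures the epithelium) from day 8 to day 11, and were taken on day 26 (D26). The Irf1-/- mice carry the mutant allele in every cell, and whole tissue was used, so fewer cells of a type and less RNA per cell cannot be told apart. The labels give neither the age of the untreated mice nor the sex of any mouse.

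Library totals lay between 22266607 and 22869853 counts. Irf1 was lower in each untreated Irf1-/- library (79.4 to 117 CPM, counts per library scaled to a common size) than in the untreated B6 libraries (128 to 161 CPM), and lower in treated Irf1-/- (99.97 to 123.2 CPM) than in treated B6 (173 to 227 CPM). The labels do not say which part of Irf1 the allele lacks. The 11 colonocyte markers with a row summed to 9625 to 12762 CPM over the libraries. Xist, the RNA of the inactive X chromosome, was at 25.2 and 5.97 CPM in treated B6 replicates 1 and 2 and at 11.6 CPM in treated Irf1-/- replicate 1, against 321 to 3729 CPM in the other 12 libraries. All 3 low libraries are treated ones. The slope of log2 expression on GC content was 0.14 to 0.30 per 10% of GC in the treated B6 libraries and -0.13 to 0.03 in the rest.

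Per length, the 8 genes spanned a wide range of levels. Over the 15 libraries, Sat1 averaged 104 CPM per kilobase of its longest transcript, Odc1 60.8 and Azin1 40.1. Next came Ass1 at 25.7, Arg1 at 23.2, Asl at 11.4, Srm at 7.91 and Sms at 5.33 CPM per kilobase. Arg1 was the gene whose place in this order moved: its group mean was 9.53 CPM per kilobase in control set 1, and 39.9 and 40.4 in treated B6 and treated Irf1-/- mice. In those treated groups Azin1 stood at 35.5 and 40.5 CPM per kilobase.

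**Figure D1:**
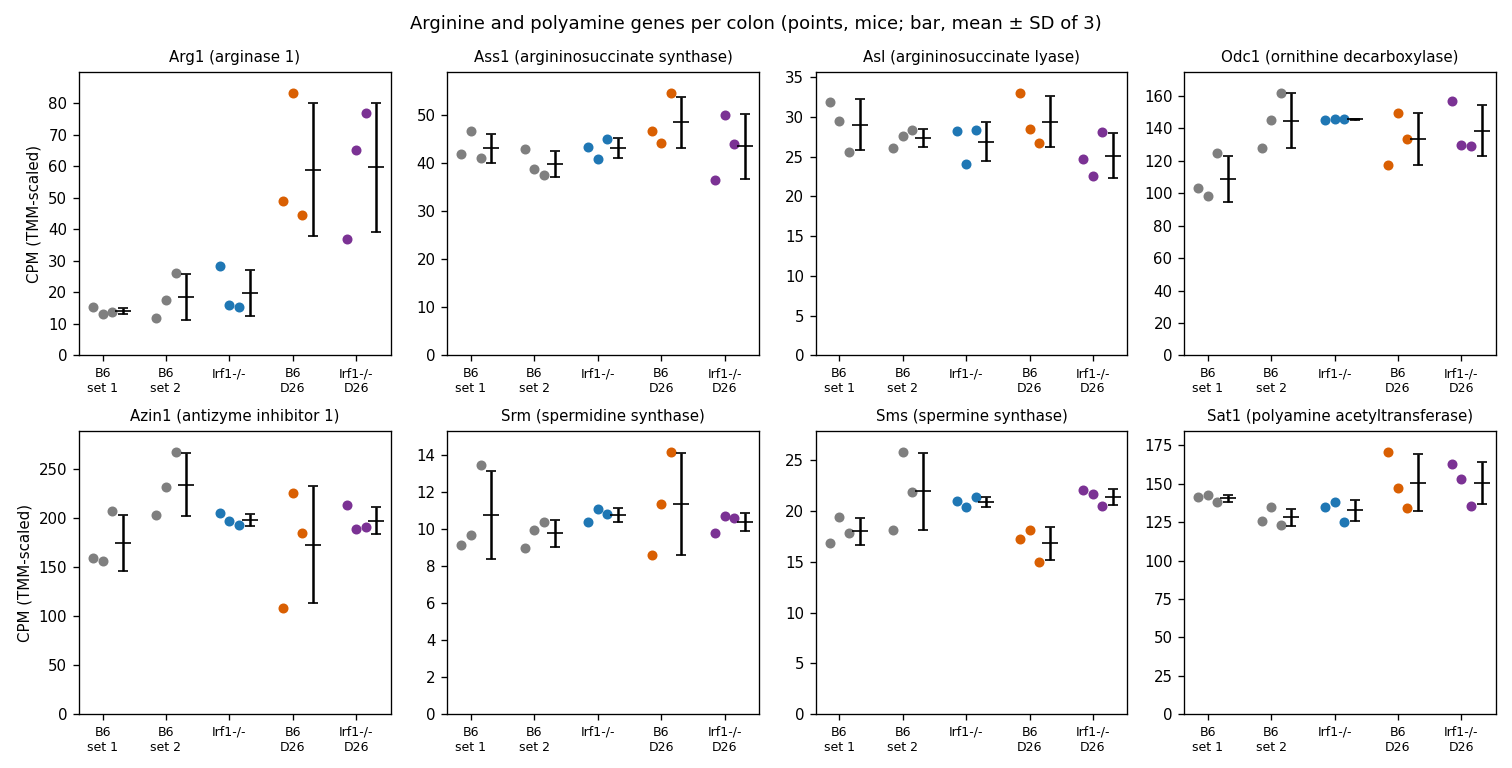
Level of each of the 8 genes in every colon, in CPM after trimmed-mean (TMM) scaling on a linear axis from 0, with 3 mice per group as points and the mean ± SD beside them. Arg1 lies at 37.0 to 83.1 CPM in the treated colons and at 11.9 to 28.3 CPM in the untreated ones, while treated and untreated colons overlap for the other 7 genes.

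Arg1, arginase 1, was higher in every treated colon than in every untreated colon. It measured 15.2, 13.2 and 13.8 CPM in control set 1 and 49.1, 83.1 and 44.5 CPM in treated B6 mice. In Irf1-/- mice, it measured 28.3, 16.1 and 15.2 CPM untreated and 37.0, 65.2 and 76.7 CPM treated. Within each genotype, no treated library came down to the level of an untreated one. Control set 2, at 11.9, 17.5 and 26.3 CPM, also stayed below all 6 treated libraries. These levels rest on 265 to 1866 counts per library.

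The group means of Arg1 were 14.1 ± 1.04 CPM in control set 1, 18.5 ± 7.24 in control set 2, 19.9 ± 7.29 in untreated Irf1-/-, 58.9 ± 21.1 in treated B6 and 59.7 ± 20.4 in treated Irf1-/- mice (SD, n = 3 each). The order has a gap between the untreated and the treated groups, and neighbours on either side of the gap did not differ beyond their spread.

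With both genotypes averaged, Arg1 rose 3.31-fold on treatment (log2 fold change 1.73, SE 0.21, 95% confidence interval 1.28 to 2.17, adjusted p = 0.000154 in edgeR's quasi-likelihood test over 12370 genes). It was the 1 of the 8 genes called, meaning changed 1.5-fold or more at an adjusted p below 0.01, against 1.64% of all genes tested. It was also the 1 gene of the 8 whose treated and untreated libraries did not overlap, against 2.27% of all genes. Leaving out any 1 of the 15 mice kept the log2 fold change between 1.56 and 1.90, called each time.

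Within each genotype alone the same gene had the largest change of the 8 but missed the threshold. In B6 mice, the log2 fold change against control set 1 was 2.07 (SE 0.22, 95% confidence interval 1.57 to 2.57, adjusted p = 0.0115). In Irf1-/- mice it was 1.59 (SE 0.30, 95% confidence interval 0.91 to 2.26, adjusted p = 0.0359). Thus 0 of the 8 genes were called in either response by edgeR's quasi-likelihood test, against 0.0475% and 0.252% of all genes tested. DESeq2 called Arg1 in both. It called more genes in all: 227 higher and 214 lower of 12643 in B6, and 152 higher and 69 lower of 12692 in Irf1-/- mice. At an unadjusted p under 0.05 stood 2 of the 8 genes in B6 (Arg1 and Odc1) against 29.5% of all genes, and 1 in Irf1-/- (Arg1) against 18.6%. Arg1 was also the 1 gene without overlap between treated and untreated libraries in each genotype, against 34.6% of all genes in B6 and 24.8% in Irf1-/- mice.

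Which single colon was left out decided the call. In B6 mice, Arg1 was called without treated replicate 1 or without treated replicate 2, and in Irf1-/- mice without treated replicate 1. The number of all genes called moved as well. In B6 it went from 4 higher and 2 lower to 111 and 41 without replicate 1, and to 17 and 16 without replicate 2. No gene was called in B6 without treated replicate 3 or any mouse of control set 1. In Irf1-/- mice it went from 26 and 6 to 50 and 11. The 3 libraries whose omission gave the Arg1 call are those low in Xist. Without all of them, an alternative added after seeing the data, the log2 fold change was 1.67 (adjusted p = 0.00262) in B6, where 1 treated library remained and was assumed to vary like the rest, 1.84 (adjusted p = 0.00871) in Irf1-/- mice and 1.65 (adjusted p = 0.000586) with genotypes averaged.

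**Figure D2:**
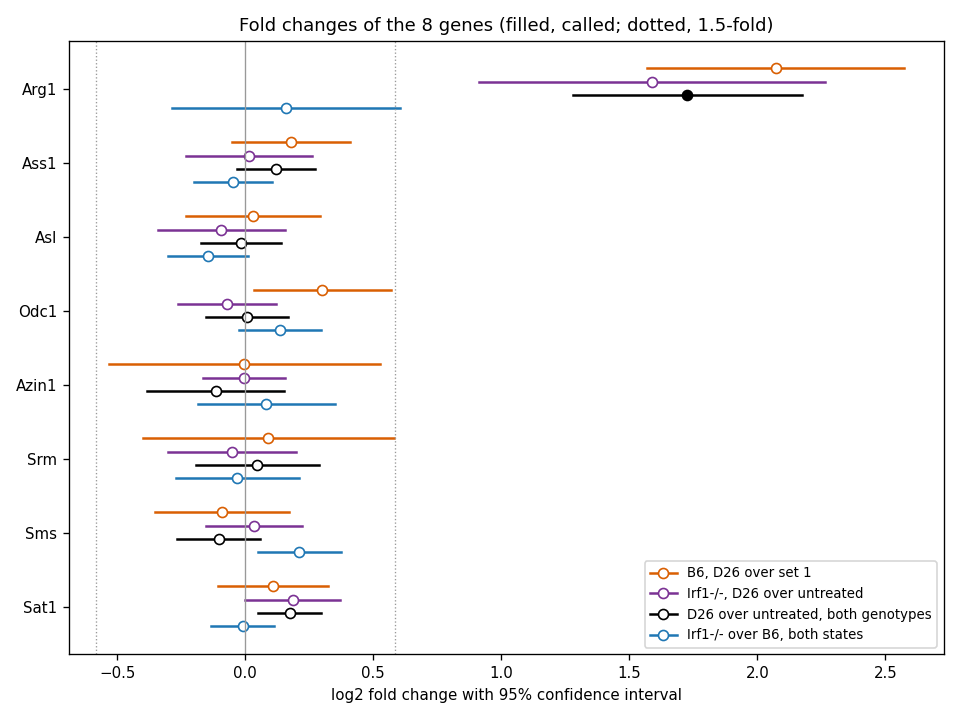
Log2 fold change of each of the 8 genes with its 95% confidence interval, for treatment in B6, treatment in Irf1-/-, treatment averaged over genotypes and genotype averaged over states; filled points were called, and dotted lines mark a 1.5-fold change. Arg1 lies at 1.59 to 2.07 in the 3 treatment comparisons and at 0.16 for genotype, and no other point passes a dotted line.

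No genotype difference in Arg1 passed the test. Untreated Irf1-/- mice differed from control set 2 by a log2 fold change of 0.10 (SE 0.29, 95% confidence interval -0.55 to 0.75, adjusted p = 0.955). Against control set 1 the difference was 0.49 (SE 0.21, adjusted p = 0.213), and against both sets 0.295 (SE 0.23, adjusted p = 0.709), so its size depended on the control set. Treated Irf1-/- and treated B6 mice differed by 0.00 (SE 0.28, 95% confidence interval -0.64 to 0.64, adjusted p = 0.997). With states averaged, the genotype difference was 0.16 (SE 0.21, 95% confidence interval -0.29 to 0.60, adjusted p = 0.664). Within either state, the interval reaches the 1.5-fold limit, 0.58 on the log2 scale, in 1 direction or both. The 3 mice of a genotype spread widely, from 44.5 to 83.1 CPM in treated B6 and from 37.0 to 76.7 CPM in treated Irf1-/- mice.

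The response of Irf1-/- mice minus that of B6 mice was -0.48 for Arg1 (SE 0.42, 95% confidence interval -1.39 to 0.43, adjusted p = 0.601). The difference between the control sets was of similar size, 0.40 (SE 0.23, 95% confidence interval -0.11 to 0.91, adjusted p = 0.415), and B6 treated mice are compared with set 1 while untreated Irf1-/- mice are compared with set 2. Taking set 2 as the untreated B6 group gave a difference of responses of -0.08. Without the libraries low in Xist it turned to 0.18, and treated Irf1-/- mice then stood above treated B6 by 0.66 (adjusted p = 0.0265). That comparison holds 1 treated B6 library, which was assumed to vary like the others.

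None of the 8 genes was called in the comparisons that test genotype or the difference of responses by edgeR's quasi-likelihood test, nor by DESeq2. The shares of all genes called were 0.405% for untreated Irf1-/- against control set 2, 0.385% for treated Irf1-/- against treated B6, 0.889% for genotype averaged over states and 0.016% for the difference of responses. At an unadjusted p under 0.05 stood Azin1 in the first (1 of 8, against 10.4% of all genes), Sms in the next pair (1 of 8 each, against 22.0% and 27.0%) and Odc1 in the last (1 of 8, against 16.9%).

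The 2 genes whose levels ran closest to Arg1 over the 15 libraries, Krt6a and Krt6b, were keratins of stratified squamous epithelium. Each gene's log2 CPM was centred on its own mean, and the root mean square difference from Arg1 was taken for each of 12369 genes. Krt6a was the nearest at 0.23, then Krt6b at 0.29 and Gm5478 at 0.30, where the spread of Arg1 itself was 0.95. Krt6a and Krt6b are near-identical keratins, so their reads may be divided between them unevenly. This likeness is a description over 15 libraries that share the treatment contrast.

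Krt6a, a keratin of wounded and hyperproliferative epidermis, measured 55.6, 57.4 and 72.1 CPM in control set 1 and 179.6, 325 and 157 CPM in treated B6 mice. In Irf1-/- mice, it measured 105, 57.9 and 68.8 CPM untreated and 176, 236 and 405 CPM treated. As for Arg1, the highest colon of treated B6 was replicate 2, the highest of treated Irf1-/- was replicate 3 and the lowest there replicate 1, and the highest untreated colon of the Irf1-/- group was replicate 1. The order differed in control set 1, where replicate 1 was highest for Arg1 and replicate 3 for Krt6a, and in the lowest colon of untreated Irf1-/- mice, replicate 3 for Arg1 and replicate 2 for Krt6a. Krt6a rose by a log2 fold change of 1.78 with genotypes averaged (SE 0.24, adjusted p = 0.000263).

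Krt14 and Krt5, the keratin pair of basal squamous cells, rose as well, by 1.72 (SE 0.22, adjusted p = 0.000191) and 1.49 (SE 0.23, adjusted p = 0.000659). These were the 3 called of 12 squamous markers with a row. Among markers of squamous cells that differentiate, none was called: Krt13 stood at 0.73 (adjusted p = 0.0508) and Sprr1a at 0.74 (adjusted p = 0.0360), and Krt1, Krt10, Krt4 and Lor lay between -0.16 and 0.28. Krt15, Trp63 and Dsg3 were not called either, and treated and untreated colons overlapped for each. Krt15 measured 21.96 to 35.2 CPM in treated and 9.65 to 33.4 CPM in untreated colons. Trp63 measured 8.08 to 18.99 CPM in treated and 4.68 to 13.3 CPM in untreated colons. Ivl had no row. The summed level of the 12 markers was 417 to 915 CPM in untreated and 791 to 1798 CPM in treated colons.

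Of 11 macrophage markers, 10 had a positive log2 fold change with genotypes averaged and 2 were called, C1qb at 0.66 (SE 0.11, adjusted p = 0.000915), a complement component, and Lyz2 at 0.60 (SE 0.11, adjusted p = 0.00196), a lysozyme. The macrophage receptor Csf1r stood at 0.52, under the fold limit. The summed macrophage level was 431 to 649 CPM in untreated and 644 to 872 CPM in treated colons, so the ranges met. Endothelial markers summed to 184 to 202 CPM in untreated and 216 to 248 CPM in treated colons, without overlap, and 0 of 7 were called. Goblet cell markers summed to 10412 to 26124 CPM and 21467 to 35589 CPM, and 2 of 7 were called, both higher. The 2 neutrophil markers with a row summed to 114 to 161 CPM and 97.9 to 125 CPM. Neutrophil and T cell lists had 2 genes each with a row, and 8 markers of each list were not measured here.

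Both marker levels were then entered as covariates, an alternative added after seeing the data. Each level was itself higher on treatment for most of its markers, and the squamous one includes Krt6a. These fits therefore cannot separate treatment from marker level, and a smaller or uncalled Arg1 estimate in them assigns no part of the rise. With the mean log2 CPM of the squamous markers in the fit, the treatment effect on Arg1 averaged over genotypes was 1.13 (SE 0.20, adjusted p = 0.00530), with 1.79 (adjusted p = 0.142) in B6 and 0.66 (adjusted p = 0.0634) in Irf1-/- mice alone. With the macrophage markers it was 1.45 (SE 0.47, adjusted p = 0.3001), with 1.504 in B6 and 1.89 in Irf1-/- mice. Arg1 was then not called, and neither was any other of the 12370 genes. The cells that carry Arg1 were not identified, and the part of any of these cell types in its rise was not tested.

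**Figure D3:**
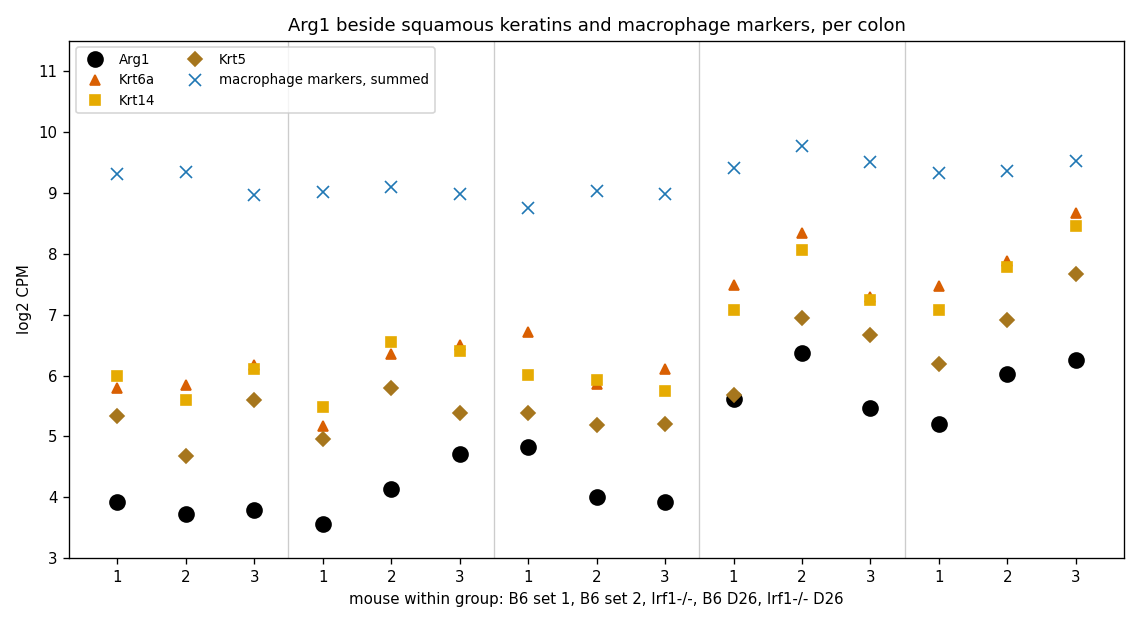
Log2 CPM of Arg1, of the squamous keratins Krt6a, Krt14 and Krt5, and of 11 macrophage markers summed, for each of the 15 colons in the order of the groups; mouse numbers within a group have no order. Arg1 and the keratins are all higher in the 6 treated colons than in the colons of their own untreated group, and within each treated group the 3 colons have the same order for Arg1 and Krt6a.

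Ass1 and Asl, the synthase and the lyase that rebuild arginine from citrulline, stayed level. Ass1 measured 36.6 to 54.5 CPM over all 15 libraries, a span of 1.49-fold between the lowest and the highest. Treated B6 mice stood at 46.7, 44.2 and 54.5 CPM and control set 1 at 41.9, 46.6 and 41.0 CPM, so the groups overlapped. The treatment effect averaged over genotypes was 0.12 (SE 0.07, adjusted p = 0.225). Asl measured 22.6 to 32.9 CPM, a span of 1.46-fold. Its lowest estimate was between the treated genotypes, -0.24 (SE 0.12, adjusted p = 0.273), where Irf1-/- mice at 24.6, 22.6 and 28.1 CPM overlapped B6 mice at 32.9, 28.5 and 26.7 CPM. With states averaged it was -0.15 (SE 0.07, adjusted p = 0.211). Over all 8 comparisons, the 95% confidence intervals reached from -0.49 to 0.41 for Ass1 and from -0.52 to 0.29 for Asl, inside the 1.5-fold limit of 0.58 on the log2 scale.

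Odc1, ornithine decarboxylase, the rate-limiting enzyme that turns ornithine into putrescine, had its largest estimate between the control sets and not on treatment. It measured 103, 98.4 and 125 CPM in control set 1 and 128, 145 and 162 CPM in control set 2, with every library of set 2 above set 1. That difference was 0.41 (SE 0.11, 95% confidence interval 0.17 to 0.65, adjusted p = 0.0997). Treated B6 mice, at 117, 149 and 133 CPM, stood above set 1 by 0.30 (SE 0.12, adjusted p = 0.132). Against set 2 the same mice gave -0.10. Untreated Irf1-/- mice were alike, at 145, 146 and 146 CPM, and treated Irf1-/- mice measured 157, 129.6 and 129 CPM.

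The difference of responses for Odc1, -0.37 (SE 0.15, adjusted p = 0.253) with set 1, was 0.05 with set 2. The direction of the B6 response and of its difference from the Irf1-/- response thus rested on the control set.

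Azin1, antizyme inhibitor 1, binds the antizymes that otherwise send ornithine decarboxylase to degradation. It had the widest spread of the 7 genes beside Arg1, 108 to 267 CPM. Control set 1 measured 159.6, 156 and 207 CPM and set 2 203, 231 and 267 CPM, a difference of 0.43 (SE 0.13, 95% confidence interval 0.14 to 0.71, adjusted p = 0.129). Treated B6 mice ranged from 108 CPM in replicate 1 to 226 CPM in replicate 2, with 184 CPM in replicate 3, which covers most of the range of both control sets. Untreated Irf1-/- mice, at 205, 197 and 193 CPM, stood below set 2 by -0.24 on the log2 scale (SE 0.09, adjusted p = 0.404) and above set 1 by 0.18. Treated Irf1-/- mice, at 213, 188 and 190.4 CPM, were close to the untreated ones.

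Between the control sets, 0 of the 8 genes were called by edgeR's quasi-likelihood test or by DESeq2, against 0.0644% of all genes, and 2 of 8 stood at an unadjusted p under 0.05 (Odc1 and Azin1), against 17.2%. In 2 of 8 genes the sets did not overlap, Odc1 higher and Sat1 lower in set 2, against 21.4% of all genes. The genes nearest to Azin1 over the 15 libraries were Kpna2, Cenpp and Hmgb1-rs17, with root mean square differences of 0.14, 0.16 and 0.16 where the spread of Azin1 was 0.29. Those nearest to Odc1 were Slc39a11, Ostc and Rpn1, at 0.08, 0.08 and 0.09 where the spread of Odc1 was 0.20. Hmgb1-rs17 is a copy of Hmgb1 and may share its reads. Kpna2 is a nuclear import adaptor, and Ostc and Rpn1 are parts of the complex that attaches sugars to proteins in the endoplasmic reticulum.

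Srm and Sms add the aminopropyl groups that make spermidine and then spermine, and they were the lowest of the 8 genes. Srm measured 8.61 to 14.1 CPM, from 196 to 323 counts per library. Both of its extremes lay in the treated B6 group, at 8.61, 11.3 and 14.1 CPM, while treated Irf1-/- mice measured 9.79, 10.7 and 10.6 CPM. Over the 8 comparisons its log2 fold change lay between -0.15 and 0.14, with no adjusted p below 0.662.

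Sms was higher in every treated Irf1-/- colon, at 22.05, 21.7 and 20.5 CPM, than in any treated B6 colon, at 17.3, 18.2 and 15 CPM. The difference was 0.33 (SE 0.11, 95% confidence interval 0.08 to 0.59, adjusted p = 0.141), and 27.7% of all genes did not overlap in this comparison. Untreated Irf1-/- mice measured 21.0, 20.4 and 21.4 CPM, above control set 1 (16.8, 19.4 and 17.8 CPM) and within set 2 (18.2, 25.8 and 21.9 CPM). Set 2 exceeded set 1 by 0.28 (SE 0.13, adjusted p = 0.306). With states averaged, the genotype difference was 0.21 (SE 0.08, adjusted p = 0.0898), under the fold limit.

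Sat1 acetylates spermidine and spermine, the step that sends them to export or back-conversion, and it was the most abundant of the 8 genes per length. It measured 171, 147 and 134 CPM in treated B6 mice against 141, 142 and 138 CPM in control set 1. In Irf1-/- mice, it measured 135, 138 and 125 CPM untreated and 163, 153 and 135 CPM treated. The groups overlapped in both genotypes. Control set 2 measured 126, 135 and 123.4 CPM.

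With genotypes averaged, Sat1 was higher on treatment by 0.17 (SE 0.06, 95% confidence interval 0.05 to 0.30, adjusted p = 0.0378), a 1.13-fold change that passes neither limit. It was the other of the 2 genes in 8 at an unadjusted p under 0.05 there, against 38.4% of all genes. In Irf1-/- mice alone it was 0.18 (SE 0.08, adjusted p = 0.274). The highest treated colon of each genotype was replicate 1, both low in Xist, and without the libraries low in Xist the averaged difference was 0.07 (adjusted p = 0.424). Sat1 and Sms lie on the X chromosome, and the part of the sex of the mice in their values was not tested.

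Apart from Arg1, the estimated differences of these genes were under 1.5-fold in each of the 8 comparisons. Their 95% confidence intervals did not all stay inside that limit, 0.58 on the log2 scale. They reached from -0.59 to 0.71 for Azin1 and from -0.70 to 0.65 for Odc1. The lowest bound was -0.68 for Srm, and the highest was 0.59 for Sms. For Ass1, Asl and Sat1 they stayed inside, so larger differences are not excluded for Azin1, Odc1, Srm and Sms. The median log2 fold change of the 8 genes was 0.10 in the B6 response, 0.01 in the Irf1-/- response and 0.03 with genotypes averaged, beside 0.01, 0.01 and 0.00 over all genes. Of 1183 fits of the other 7 genes under all settings tried, 0 gave a call and 1 passed a 1.5-fold change. These fits reuse the same 15 libraries. In several of them no gene at all was called, as in the B6 response after the GC correction, so the lack of calls there says nothing about these genes.

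Beyond the 10 genes, 67 genes of arginine transport, the urea cycle and ornithine, nitric oxide control, polyamine synthesis and polyamine breakdown were listed, of which 55 had a row and 53 were in all 3 tables. With genotypes averaged, 1 of 53 rose and 3 fell on treatment past both limits, against 1.17% of all genes called higher and 0.469% called lower. The median log2 fold change of the 53 was 0.01, beside 0.00 over all genes. At an unadjusted p under 0.05 stood 25 of 53, against 38.4% of all genes.

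Of the 11 urea cycle, ornithine, proline and creatine enzymes, 3 fell. Otc, ornithine transcarbamylase, which joins ornithine and carbamoyl phosphate into citrulline, fell by 0.69 on the log2 scale (SE 0.13, adjusted p = 0.00249), from 6.80 to 11.6 CPM in untreated to 3.84 to 7.30 CPM in treated colons. Cps1, which makes carbamoyl phosphate, fell by 0.59 (SE 0.12, adjusted p = 0.00319), and its 13.05 to 21.3 CPM in treated colons lay below the 21.8 to 34.8 CPM of all untreated ones. Gatm, which uses arginine to begin creatine synthesis, fell by 0.60 (SE 0.13, adjusted p = 0.00443), to 10.8 to 19.7 CPM from 19.8 to 27.7 CPM, again without overlap.

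Oat, which links ornithine to glutamate and proline, stood at -0.35 in the Irf1-/- response (SE 0.07, adjusted p = 0.0408), with 196.6, 179 and 190.1 CPM untreated and 155, 149 and 138 CPM treated. Otc stood at -0.85 there (SE 0.16, adjusted p = 0.0349).

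Ddah1, which clears methylated arginines that block nitric oxide synthase, was the gene that rose, by 0.88 (SE 0.20, adjusted p = 0.00492). It measured 10.7 to 22.3 CPM in untreated colons and 17.4 to 51.5 CPM in treated ones, which overlapped. Its 2 highest colons, treated Irf1-/- replicate 1 at 51.5 CPM and treated B6 replicate 2 at 42.1 CPM, are both low in Xist. The third library low in Xist, treated B6 replicate 1, was the lowest treated colon at 17.4 CPM, and the other 3 stood at 19.1 to 26.4 CPM. Untreated Irf1-/- mice, at 20.1, 22.3 and 18.7 CPM, all exceeded control set 2, at 13.6, 14.1 and 16.1 CPM, with a difference of 0.48 (SE 0.11, adjusted p = 0.0882).

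These 4 calls were less firm than that of Arg1. Without the libraries low in Xist, Ddah1 stood at 0.46, Otc at -0.53, Cps1 at -0.53 and Gatm at -0.31, and none was called. After a correction for GC content, 1 of the 4 (Ddah1) was called. Arg1 was called in both fits.

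Smox, spermine oxidase, which converts spermine back to spermidine and gives off hydrogen peroxide, was higher in all 6 treated colons, at 27.4 to 35.5 CPM, than in the 9 untreated ones, at 19.4 to 24.7 CPM. Its log2 fold change was 0.44 (SE 0.06, adjusted p = 0.000435), a 1.35-fold change under the limit of 1.5. In B6 mice it was 0.61 (SE 0.11, adjusted p = 0.0212) and in Irf1-/- mice 0.34 (SE 0.09, adjusted p = 0.0946). Without the libraries low in Xist the averaged value was 0.37 (adjusted p = 0.00495).

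Atp13a3, a polyamine transporter of the endosome, was lower, with -0.30 (SE 0.05, adjusted p = 0.00136). In B6 mice alone it was -0.45 (SE 0.08, adjusted p = 0.0213): treated B6 colons measured 236, 255 and 223 CPM against 335, 318 and 330 CPM in control set 1, while treated Irf1-/- mice measured 284, 302 and 351 CPM against 335, 333 and 344 CPM untreated. The difference of the responses was 0.35 (SE 0.12, adjusted p = 0.168). Slc7a2, the cationic amino acid transporter that brings arginine into the cell, stood at -0.43 in the B6 response (SE 0.09, adjusted p = 0.0330).

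**Figure D4:**
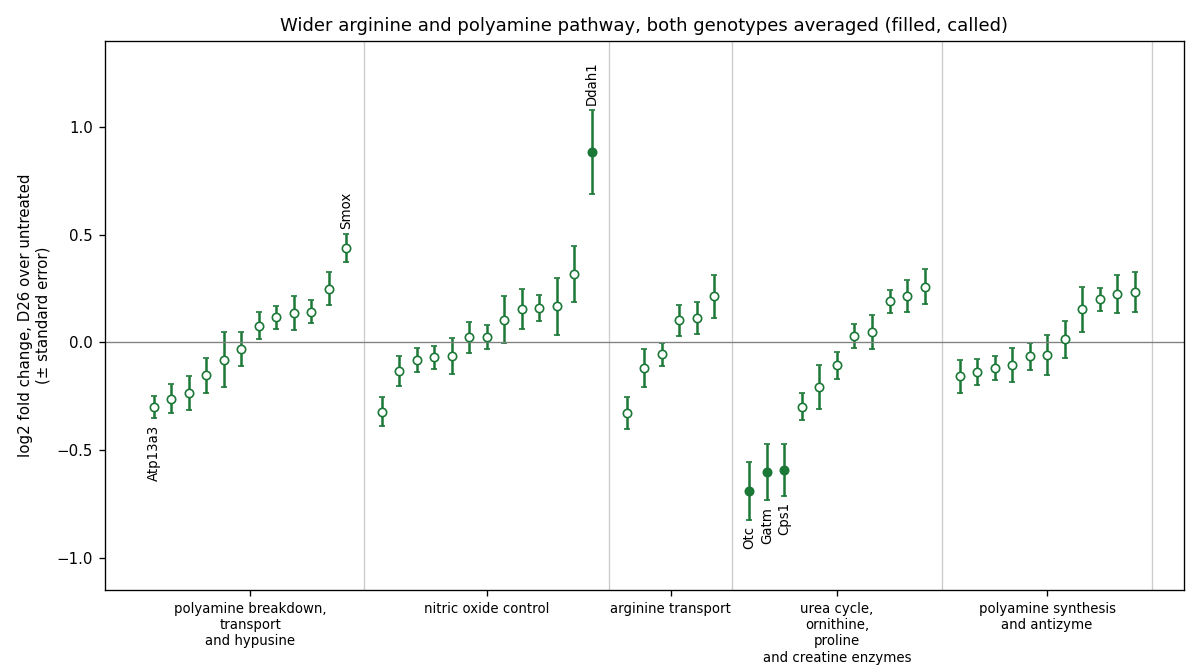
Log2 fold change on treatment, averaged over genotypes, of 53 genes of the wider arginine and polyamine pathway, grouped by list and ordered by value, with error bars of 1 standard error; filled points were called. Ddah1 at 0.88 is the highest, Otc, Gatm and Cps1 lie at -0.69 to -0.59, and the polyamine synthesis genes all lie within 0.25 of 0.

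With states averaged, 0 of 53 were called by edgeR's quasi-likelihood test or by DESeq2, and 14 of 53 stood at an unadjusted p under 0.05, against 27.0% of all genes. Aldh1b1, an aldehyde dehydrogenase, was lower in Irf1-/- mice by -0.44 (SE 0.08, adjusted p = 0.00375), and Paox, polyamine oxidase, which breaks down acetylated polyamines, by -0.36 (SE 0.08, adjusted p = 0.0106), both under the fold limit. Paox measured 18.6, 19.02 and 18.8 CPM in treated B6 and 11.8, 12.3 and 13.9 CPM in treated Irf1-/- mice, a difference of -0.59 (SE 0.11, adjusted p = 0.0419). Aldh1b1 measured 284, 203 and 236 CPM in treated B6 and 121, 165 and 169 CPM in treated Irf1-/- mice, -0.69 (SE 0.16, adjusted p = 0.0629).

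Eif5a2, a translation factor activated by hypusine, which is made from spermidine, ran the other way at 3.54 to 4.39 CPM in treated B6 and 5.17 to 8.91 CPM in treated Irf1-/- mice, 0.78 (SE 0.22, adjusted p = 0.103). Its difference of responses was 0.84 (SE 0.26, adjusted p = 0.147), and that of Spr, which makes the cofactor of nitric oxide synthase, was -0.40 (SE 0.10, adjusted p = 0.102). None of these passed the threshold, and 0 of 53 wider genes were called between the responses, between the treated genotypes, between the untreated genotypes or between the control sets by edgeR's quasi-likelihood test. In that order, 11, 11, 5 and 10 of 53 stood at an unadjusted p under 0.05, against 16.9%, 22.0%, 10.4% and 17.2% of all genes, and DESeq2 called 0, 1, 0 and 0.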

How the data were processed

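RNA of 15 mouse colons was sequenced by the authors from rRNA-depleted stranded libraries, and they deposited raw read counts per gene in 3 tables. Per the labels' processing notes, TopHat2 2.0.9, Bowtie 1.0.0, featureCounts and edgeR were used with build mm9. The authors had removed genes that did not reach 5 CPM in 3 or more libraries. Their 36 CPM columns and their fold changes and p-values were not used.

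All genes of a comparison were tested together by the quasi-likelihood test of edgeR 4.0.16 under R 4.3.3, after TMM scaling, and p-values were adjusted by Benjamini-Hochberg. A gene was called when it changed 1.5-fold or more at an adjusted p below 0.01. Comparisons within 2 groups used those 6 libraries. The difference of responses used 12, and the averages over genotypes or states all 15. CPM values are TMM-scaled over 15 libraries, and transcript lengths and GC content, matched for 94.13% of genes, came from GENCODE M21. In simulated data, the fits called 31 of 67 changes of 1.5-fold in the B6 response and 28 of 67 with genotypes averaged. For the difference of responses they called 6 of 67. Of 67 changes of 2-fold, 62 were called in the B6 response, 66 with genotypes averaged and 45 for the difference of responses. All 66 changes of 4-fold were called in each, whereas the 4.20-fold rise of Arg1 in B6 was not called in the data. The simulated counts varied only by the spread fitted per gene, so these shares may overstate what the real libraries allow.

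The wider genes described come from, for each comparison, up to 2 of lowest p in each direction and those called in any. Slc12a8, Gucy1a3, Gucy1b3, Atp13a2 and Qdpr met the same rule, and their values are not given. Marker genes with values were named after these were seen. Alternatives were DESeq2 1.42.0, edgeR's exact test, other thresholds, scaling, filters and control sets, a GC correction (lowess span 0.3), a replicate block and each mouse left out. The genes and lists were chosen with earlier results of these data known. Each library was taken as 1 mouse, and p-values set group differences against the spread between the samples of a group.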

Additional observations from a re-analysis of the deposited data

Results flagged for a closer look

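In 3 of the 8 genes, the Irf1-/- and B6 libraries differed one way untreated and the opposite way at D26, in every Irf1-/- library against the B6 mean of the same state, with control set 2 as the untreated B6 mice. Against the control set 1 mean, none of the 3 genes met this. With control set 2, such a reversal held for 1355 of 12370 genes. For Azin1, the genotype difference at D26 was higher than that of untreated mice by 0.483 on the log2 scale. For Sms it was higher by 0.404, and for Srm lower (-0.247). The difference was tested as the difference of responses with control set 2 as untreated B6, in edgeR's quasi-likelihood test. There it was 0.43 for Azin1 (SE 0.27, 95% confidence interval -0.16 to 1.01, adjusted p = 0.479), 0.42 for Sms (SE 0.17, 95% confidence interval 0.05 to 0.78, adjusted p = 0.275) and -0.28 for Srm (SE 0.22, 95% confidence interval -0.74 to 0.19, adjusted p = 0.585). None passed the threshold, and with control set 1 the values were 0.00, 0.13 and -0.14.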

How the results depend on the processing

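The rise of Arg1 on treatment kept its direction under every alternative tried. With no gene called in the B6 response by the test reported, 1 (Arg1) was called at an adjusted p under 0.05, by DESeq2, by edgeR's exact test, at a minimum of 10 CPM, with all 15 libraries in 1 fit, with both control sets and without the libraries low in Xist. In the Irf1-/- response, 1 was called at an adjusted p under 0.05, by DESeq2, by the exact test and without those libraries. With a mouse left out the count was 0 to 1 in either. With genotypes averaged, the count of 1 became 0 with the macrophage covariate, where no gene at all was called. Of the wider genes, none called between untreated genotypes became 1 with control set 1 or both sets; none in B6 became 2 at 0.05, by DESeq2 or by the exact test and 1 with all 15 libraries; none in Irf1-/- became 1 at 0.05 and 2 by DESeq2 or the exact test; and none between treated genotypes became 1 at 0.05, by DESeq2 or with all 15 libraries and 2 by the exact test. The 4 called for treatment averaged over genotypes became 1 after the GC correction, with control set 1 or with the squamous covariate, and 0 with block and GC correction, with the macrophage covariate or without the libraries low in Xist. Leaving out 1 mouse gave 1 to 4: 1 without untreated Irf1-/- replicate 2, and 2 without control set 2 replicate 2, untreated Irf1-/- replicate 1 or 3, treated B6 replicate 2 or treated Irf1-/- replicate 1. For genotype averaged over states this gave 0 to 1, with 1 (Aldh1b1) without treated B6 replicate 2.

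Arg1 changed sign between treated genotypes after the GC correction (-0.040), with the replicate block (-0.0094) and with both (-0.052), and in the difference of responses without the libraries low in Xist (0.18). Leaving out mice gave -0.24 to 0.43 between untreated genotypes, -0.22 to 0.34 between treated ones and -0.013 to 0.31 with states averaged. Odc1 turned to -0.10 in B6 with control set 2 and to -0.00076 with the squamous covariate, and to 0.045 in the difference of responses with set 2. Azin1 turned to 0.18 between untreated genotypes with set 1, and Cps1 to 0.054 with the macrophage covariate. The cause was not tested. Same-numbered libraries correlated at -0.22 to 0.25, which does not settle whether the numbers pair mice, and the labels state no pairing. The replicate block changed no call of the 8 genes. Over all genes, the exact test called 245 higher and 215 lower in B6 against 4 and 2, and 177 and 72 in Irf1-/- against 26 and 6. It could not be run for the difference of responses or the averages. With 3 mice per group and the lowest gene at 196 counts, changes of the 7 other genes up to about 1.5-fold could be missed.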
